A study of Drosophila melanogaster with 2 samples.

Results

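The peaks described here lay at promoters that serve protein-coding genes in 1 direction only. They were the peaks of the conservative set whose summit fell within 500 bp of the transcription start site (TSS) of a protein-coding gene, and not within 500 bp of any TSS in a head-to-head pair. A head-to-head pair was a minus-strand TSS with the plus-strand TSS of another protein-coding gene at most 1000 bp above it. By this rule 781 of 3016 peaks were members, while 491 lay at head-to-head promoters, 1743 lay away from protein-coding promoters and 1 was on an unplaced scaffold. All came from 1 group: transgenic Drosophila melanogaster, labelled strain CG5953-GFP, that express CG5953 fused to enhanced green fluorescent protein (CG5953-eGFP), taken as whole embryos of mixed age, 0 to 24 h. The fusion protein was immunoprecipitated with an antibody against green fluorescent protein, and the chromatin with it had been sonicated to 200 to 800 bp before sequencing (ChIP-seq). There were 2 libraries, named biological replicates 1 and 2 in the labels, and no comparison between conditions was possible. Whole embryos were used and no cells were sorted, so a peak gives no cell type or stage. Sequencing depth is unknown, because peak lists hold no reads. Bracketed ranges after a share are exact Clopper-Pearson 95% intervals, and they cover counting error alone. Differences between classes of peaks are given as descriptions and were not tested over the 2 libraries.

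A promoter is the DNA around a TSS where general transcription factors and RNA polymerase II assemble. Fly genes are packed closely, and many promoters lie back to back and share the DNA between them. A one-directional promoter, as defined here, has no protein-coding partner of that kind within 1000 bp. Its upstream DNA can still border or lie inside another gene. Core promoters carry short elements at fixed places: a TATA box upstream, an initiator at the start itself, a pyrimidine-rich TCT initiator at ribosomal protein genes and a downstream promoter element (DPE) within the transcribed DNA. The annotation gives CG5953 no name beyond its number.

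The first sequences show the bases under strong members. All sequences are RefSeq's for the Release 6 genome (dm6), read 5′ to 3′ on the strand of the bound gene. In the first 5, each copy of the word CACAGTG, in either orientation, is in capitals, and the window runs 100 bp to each side of the summit. They are the 5 strongest members, among those whose sequence could be shown, that held the word within 100 bp.
Rtnl1, chr2L:4997551-4997751, minus strand: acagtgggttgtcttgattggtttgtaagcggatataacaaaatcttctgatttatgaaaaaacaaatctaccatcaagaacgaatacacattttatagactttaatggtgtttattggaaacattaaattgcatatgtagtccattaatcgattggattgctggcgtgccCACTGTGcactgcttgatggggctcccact
PAN3, chr3L:3081325-3081525, plus strand: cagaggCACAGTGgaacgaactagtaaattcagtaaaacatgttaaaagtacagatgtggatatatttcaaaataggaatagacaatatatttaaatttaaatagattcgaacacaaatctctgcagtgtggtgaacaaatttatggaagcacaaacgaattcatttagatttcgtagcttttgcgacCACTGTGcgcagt
CG42327, chr3R:11655934-11656134, plus strand: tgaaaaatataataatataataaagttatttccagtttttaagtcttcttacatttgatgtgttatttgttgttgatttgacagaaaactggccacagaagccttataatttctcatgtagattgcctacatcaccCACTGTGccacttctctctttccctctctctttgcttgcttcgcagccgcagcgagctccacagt
CG31808, chr2L:16716246-16716446, minus strand: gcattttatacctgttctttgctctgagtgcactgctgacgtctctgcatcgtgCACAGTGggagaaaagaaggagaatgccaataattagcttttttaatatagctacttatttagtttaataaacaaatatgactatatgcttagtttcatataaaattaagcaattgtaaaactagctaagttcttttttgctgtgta
Ptp4E, chrX:4939865-4940065, plus strand: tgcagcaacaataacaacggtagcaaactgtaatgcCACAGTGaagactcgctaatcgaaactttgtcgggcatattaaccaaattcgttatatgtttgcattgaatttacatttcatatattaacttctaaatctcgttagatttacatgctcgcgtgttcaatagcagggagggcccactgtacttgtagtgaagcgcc

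At Rtnl1 the word lay 74 bp from the summit on the side of the gene, and at CG42327 39 bp on that side. At PAN3 there was a copy 91 bp away on either side, each reading toward the summit. At CG31808 the copy lay 43 bp on the upstream side and at Ptp4E 61 bp on that side. In none of these 5 was the word at the summit itself.

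Most of the strongest members had no CACAGTG within 150 bp: of the 25 with the highest signal, 6 had it. The 3 windows shown next, 60 bp to each side of the summit, are the strongest such members that could be shown, and they contain no capitals for that reason.
CG14100, chr3L:19590558-19590678, minus strand: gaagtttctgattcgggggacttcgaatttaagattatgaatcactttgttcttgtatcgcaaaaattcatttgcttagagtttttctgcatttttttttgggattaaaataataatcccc
CG18549, chr3R:12449102-12449222, plus strand: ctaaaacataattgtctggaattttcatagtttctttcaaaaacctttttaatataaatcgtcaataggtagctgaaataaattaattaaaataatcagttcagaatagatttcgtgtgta
Gapdh2, chrX:15867927-15868047, plus strand: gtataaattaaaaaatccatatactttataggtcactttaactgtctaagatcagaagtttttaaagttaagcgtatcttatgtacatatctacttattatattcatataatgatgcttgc

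The promoter of CG5953 itself is shown because it encodes the tagged protein. The window is 100 bp to each side of its stronger summit, and it too lacks the word.
CG5953, chr2L:16533181-16533381, minus strand: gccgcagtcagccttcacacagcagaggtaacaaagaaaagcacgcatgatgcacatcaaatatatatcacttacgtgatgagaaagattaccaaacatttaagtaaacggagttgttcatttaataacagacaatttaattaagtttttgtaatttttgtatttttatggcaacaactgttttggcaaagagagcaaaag

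Ribosomal protein promoters had summits in another place, close to the start, so the next 4 windows run from 40 bp upstream to 20 bp downstream of the TSS. They are the 4 strongest that could be shown among the bound ribosomal protein promoters with a TCT initiator, here TCTTT or CCTTT within 10 bp of the TSS on the sense strand, shown in capitals.
RpL23A, chr3L:1668634-1668694, minus strand: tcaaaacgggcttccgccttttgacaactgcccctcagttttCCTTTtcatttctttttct
RpL22, chrX:765110-765170, minus strand: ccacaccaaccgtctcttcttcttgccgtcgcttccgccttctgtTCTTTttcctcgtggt
RpL27, chr3R:25685031-25685091, minus strand: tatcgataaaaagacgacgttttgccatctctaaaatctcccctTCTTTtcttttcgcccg
RpS27A, chr2L:10408312-10408372, plus strand: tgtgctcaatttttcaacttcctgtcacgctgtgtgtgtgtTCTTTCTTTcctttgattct

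One-directional promoters made up 25.9% of the 3015 placed peaks (781 peaks; 24.3 to 27.5%). In the replicates' own thresholded lists the share was 26.3% of 1975 peaks in replicate 1 and 28.3% of 1660 in replicate 2, or 27.3% ± 1.44 (SD, n = 2). The signal of each peak is the authors' own value, whose unit is not given in the sources used here. It ranged from 2.40 to 1152 among members with a median of 87.8, against a median of 90.5 at head-to-head promoters and 78.7 away from promoters. The median was 65.6 for the one-directional peaks of replicate 1's list and 57.0 for those of replicate 2's, against 61.4 and 57.2 at head-to-head promoters, so the order of these 2 classes differed between the lists. The replicates' ranked lists, which are the source of all further signals by replicate, held a peak overlapping 773 of the members in both libraries. Those matching signals differed by a median of 1.29-fold between replicates, and 467 were higher in replicate 1 against 306 in replicate 2.

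**Figure D1:**
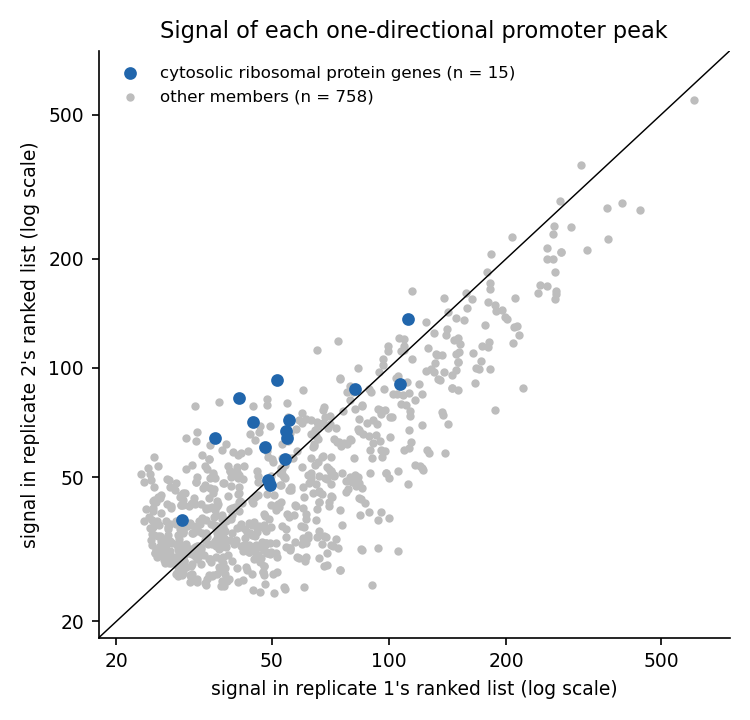
Signal of the matching peak in replicate 2's ranked list (vertical, log scale) against replicate 1's (horizontal, log scale) for each of 773 one-directional promoter peaks, with a line of equal signal. The 15 peaks at cytosolic ribosomal protein genes, in blue, lie mostly above the line, with 13 higher in replicate 2, whereas 306 of all 773 were higher there.

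Of the 781 members, 339 overlapped a peak in the thresholded lists of both replicates (43.4%; 39.9 to 47.0%). Replicate 1's list alone held a match for 134 more, and replicate 2's list alone for 86. Neither list matched the remaining 222. Strong and weak members differed widely in this: 98.0% of the 196 members in the strongest quartile by signal were in both lists, against 1.03% of the 195 in the weakest. The lists are thresholded, so being in both is not independent of signal. At head-to-head promoters 44.6% of peaks were in both lists, and away from promoters 35.7%.

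Most of the strongest members lay just upstream of a TSS. Of the 25 with the highest signal, 24 had the summit upstream of the TSS, 60 to 270 bp away with a median of 143 bp, and all 25 were in both replicates' lists. Their signals ran from 390 to 1152, and they ranked between 2 and 78 among all conservative peaks. The top member lay 94 bp upstream of CG14100 (3L, 19590480 to 19590736), with a signal of 1152, and of 606 in replicate 1 and 550 in replicate 2. The next lay 134 bp upstream of CG18549 (3R, 12449069 to 12449268; signal 722), with 440 in replicate 1 and 272 in replicate 2. Both genes are known here by their annotation number alone. The next peak belonged to eIF6 (2R, 23850304 to 23850520), whose product keeps the large ribosomal subunit from joining the small one too early. Its signal was 681, with 312 in replicate 1 and 362 in replicate 2, which made it 1 of 4 among the 25 that were not higher in replicate 1.

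Fkbp14, an enzyme of the endoplasmic reticulum (ER) that helps proteins fold, had a summit 111 bp upstream of its TSS with a signal of 629. Rtnl1, a reticulon that shapes ER tubules, had its strongest peak 270 bp upstream of 1 of its 7 starts, with a signal of 593, and of 365 in replicate 1 and 226 in replicate 2. TRAM, which helps move new proteins into the ER, had one 90 bp upstream with a signal of 560, and of 276 in replicate 1 and 288 in replicate 2. Alg3 builds the sugar chain that is added to proteins in the ER, and its summit lay 60 bp upstream with a signal of 390.

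Of the transcription factor genes among the 25, REPTOR, which the growth kinase TOR holds in check, had a signal of 469 at 140 bp upstream, and Sox14, a target of the moulting hormone ecdysone, had 467 at 260 bp upstream. Sesn encodes a sestrin, a stress-induced inhibitor of TOR signalling, and its promoter peak, which was also within 500 bp of a TSS of CG46429, had 447. The peak of px, a wing vein patterning gene, had 680, with 398 in replicate 1 and 284 in replicate 2. The kinase genes gish and Btk had 434 and 414, moody, a receptor gene of the glia that form the blood-brain barrier, had 437, and PAN3, a subunit of an enzyme that shortens mRNA tails, had 441. Metabolic and transport genes among the 25 were Gapdh2, a glycolytic enzyme gene with a signal of 514, MFS10 with 505, GstE13 with 481 and MFS18 with 409. GstE13 was the single gene of the 25 with its summit downstream, 95 bp into the gene. The remaining members were Tina-1, CG1888, CG13921, CG1635, CG31145 and osp, between 425 and 533.

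The gene for the tagged protein carried 2 members. The gene, FBgn0032587 in the annotation, spans 16508078 to 16532877 of 2L and is read from the minus strand. A peak 404 bp upstream of its outermost TSS (16533201 to 16533312) had a signal of 218, with 142 in replicate 1 and 69.9 in replicate 2, and was in both lists. The other, 73 bp downstream (16532656 to 16532951), had 58.1, with 28.8 in replicate 1 and 34.5 in replicate 2, and was in neither list. Another peak, 3093 bp upstream, was not a member and had a signal of 213. The labels do not say where the tagged copy is inserted, so binding at the native gene and at a tagged copy cannot be told apart here.

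Members sat further from the start than head-to-head peaks did. Of the 781 summits, 566 were upstream of the nearest TSS (72.5%; 69.2 to 75.6%), and the median lay 124 bp upstream. The middle of the distribution, between its quartiles, ran from 225 bp upstream to 16 bp downstream. At head-to-head promoters 73.3% were upstream and the median was 63 bp upstream. The construction of that class limits it, because a summit far upstream of 1 start is near the start of its partner. Summits more than 250 bp upstream made up 21.9% of members (171 peaks) and 1.43% of head-to-head peaks (7). In the replicates' own lists the one-directional median was 158 bp upstream in replicate 1 and 121 bp in replicate 2, and the upstream share was 83.2% and 75.1%, or 79.2% ± 5.75 (SD, n = 2). For the 339 members in both lists, the matched summits differed by a median of 19 bp between replicates, and by 50 bp or less in 290 of them. Those members had medians of 160 bp upstream in replicate 1 and 152 bp in replicate 2, closer to each other than the medians of the whole lists.

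**Figure D2:**
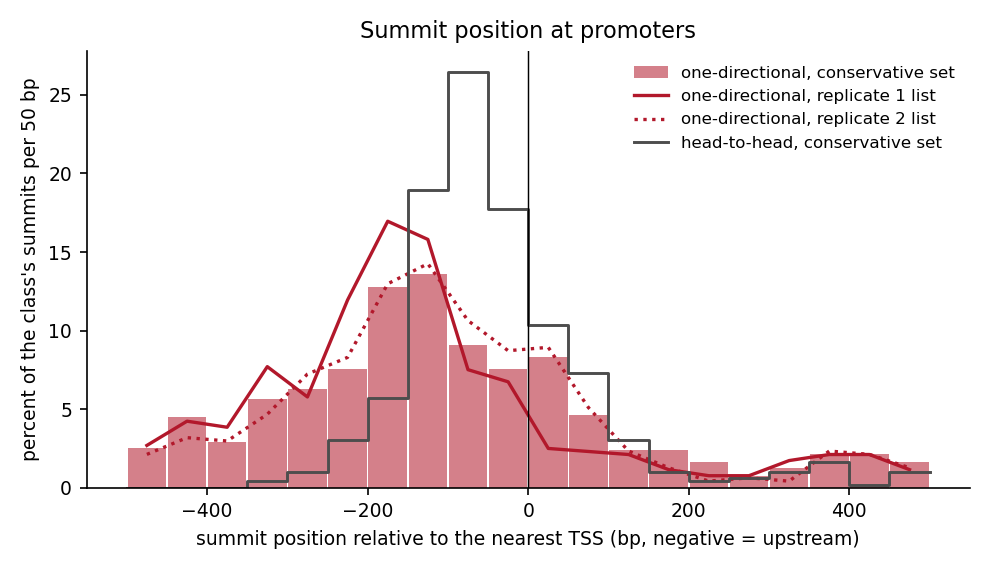
Share of summits per 50 bp against their position relative to the nearest TSS (negative is upstream), for one-directional peaks of the conservative set (bars) and of each replicate's own list (red lines), and for head-to-head peaks (grey line). One-directional summits spread from about 400 bp upstream to the start with a median 124 bp upstream, while head-to-head summits gather around 63 bp upstream.

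Peaks on both sides of the 500 bp limit had similar signals. There were 33 members 451 to 500 bp from their TSS with a median signal of 78.6, and 43 peaks 501 to 550 bp from a one-directional TSS, outside the limit, with a median of 80.7. Most members, 759, were near the TSS of a single gene, 21 were near those of 2 genes and 1 of 3. Of the summits, 320 lay outside every protein-coding gene (41.0%), 421 inside a gene whose own start was within 500 bp (53.9%) and 40 inside a different gene only (5.12%). The bound starts numbered 753. Of these, 320 had an upstream neighbour on the same strand (42.5%; 38.9 to 46.1%), against 43.9% of all 13094 one-directional starts. A further 134 (17.8%) had an upstream neighbour on the opposite strand but beyond the head-to-head limit, against 17.9% of all. Internal starts, over 500 bp inside the outermost start of their gene, were more frequent: 31.3% of bound starts (28.0 to 34.8%), against 24.7% of all. Starts inside another gene were less frequent, with 11.0% of bound starts (8.88 to 13.5%) against 16.2% of all. Another 40 bound starts (5.31%) were head to head with a noncoding gene within 1000 bp, against 4.09% of all, so these promoters are one-directional for protein-coding genes only.

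Signal, position and base composition moved together. In the weakest quartile of members 52.8% of summits were upstream, with a median 23 bp upstream. The upstream share was 68.7% in the second quartile, 79.5% in the next and 88.8% in the strongest, where the median was 164.5 bp upstream. The GC content within 100 bp of the summit had a median of 47.3% in the weakest quartile, 40.3% and 36.3% in the middle ones and 34.8% in the strongest, against 39.8% for all one-directional promoters (a window of the same length centred 124 bp upstream). That window was not matched to the position of each quartile, whose medians ran from 23 to 164.5 bp upstream. In the strongest quartile the low GC was local, at 31.0% from 50 to 26 bp on the upstream side, and it reached 49.04% from 125 to 149 bp on the gene side. The same order appeared in both replicates' own lists. In replicate 1's list the median GC was 37.3% in the weakest quartile and 33.3% in the strongest, and in replicate 2's list 42.3% and 35.3%. Upstream shares were 77.5% in the weakest quartile and 90.8% in the strongest for replicate 1, and 64.1% and 89.8% for replicate 2. At head-to-head peaks the median GC was 42.0% in the weakest quartile and 33.8% in the strongest. There it was 35.8% and 33.3% in replicate 1's list, and in replicate 2's list 38.8%, 37.6%, 34.8% and 36.3% from the weakest quartile to the strongest, with no steady order. In the conservative set the other classes moved the same way as members. The upstream share of head-to-head peaks was 56.6% in the weakest quartile and 87.0% in the strongest. Away from promoters the median GC was 43.8% in the weakest quartile and 36.3% in the strongest.

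**Figure D3:**
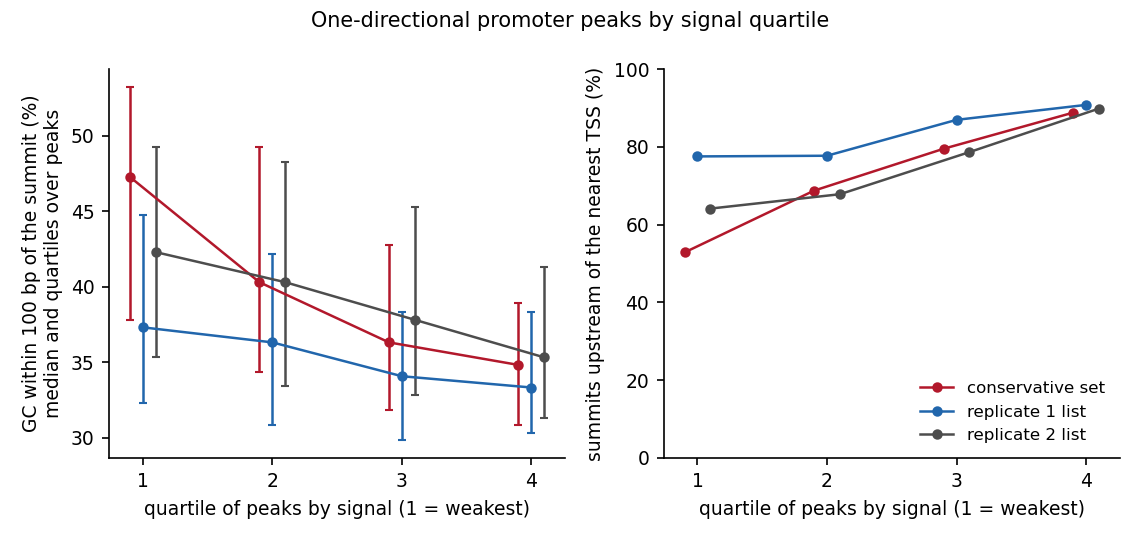
Left, median GC content within 100 bp of the summit with the quartiles over peaks as bars, and right, percent of summits upstream of the nearest TSS, both by quartile of signal (1 is the weakest) for one-directional peaks of the conservative set and of each replicate's list. GC runs down from 47.3% to 34.8% and the upstream share up from 52.8% to 88.8% across the quartiles of the conservative set, and both replicates' lists show the same order of weakest and strongest.

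The 2 libraries differed with GC, and by position without a steady order. In the members with the lowest GC (21.9 to 32.3%), replicate 1 had the higher signal in 82.4% of 188, with a median log2 ratio of replicate 1 over replicate 2 of 0.49. In those with the highest GC (47.3 to 65.2%), replicate 1 was higher in 39.3% of 196 and the median log2 ratio was -0.15. By position, the median log2 ratio was 0.29 for summits more than 100 and up to 250 bp upstream and -0.14 at 0 to 99 bp downstream, but 0.11 at 100 to 500 bp downstream, where replicate 1 was higher in 69 of 113. The part of this difference between libraries in the values by position was not tested.

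The weakest members all lay beside stronger peaks. All 21 members with a signal below 20 had another conservative summit within 250 bp, at 199 to 223 bp, and in every case that neighbour was stronger. Of the 760 members with a signal of 20 or more, 32 had such a neighbour (4.21%; 2.90 to 5.89%). The same held in the other classes, where 6 of 6 weak head-to-head peaks and 49 of 53 weak peaks away from promoters had a neighbour that near. Of the pairs of neighbouring member summits, 22 were from 150 to under 250 bp apart, none from 250 to under 400 bp, 7 from 400 to under 600 bp and 9 from 600 to under 1000 bp. No pair was closer than 150 bp. The weaker peak of the 22 close pairs had a median signal of 11.0 and the stronger one of 69.3.

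A one-directional promoter peak was found at 731 of the 9677 protein-coding genes that have a position for one, or 7.55%. In the replicates' own lists the share was 5.09% in replicate 1 (493 genes) and 4.84% in replicate 2 (468 genes). Genes with several starts offer more places for a peak and carried one more often: 22.4% of 1037 genes with 3 or more TSS (19.9 to 25.03%), 11.0% of 1826 with 2 and 4.39% of 6814 with 1 (3.91 to 4.90%). Among the genes with 1 TSS, where the number of places is the same, the share was 8.39% in the quartile of longest genes (7.12 to 9.81%) and 0.998% in that of the shortest (0.583 to 1.59%). By chromosome arm the share ran from 6.86% on 3R to 8.14% on 2R, with 7.97% on X, 7.80% on 3L and 7.44% on 2L. On chromosome 4 it was 3.03% (2 of 66 genes), and on Y 0 of 23, which allows a share of up to 14.8%.

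Most bound genes, 666, had 1 member peak, 58 had 2, 6 had 3 and Rtnl1 had 4. The 4 peaks of Rtnl1 (2L, minus strand) lay 183 to 284 bp upstream of 4 different starts, with signals of 267, 82.9, 70.1 and 593 in the order of transcription. Thus the strongest was at the innermost of these starts, with its summit 12069 bp downstream of the outermost one. Ptpmeg2, a tyrosine phosphatase gene, had 3 peaks of similar strength 162 to 185 bp upstream of 3 internal starts, with signals of 261, 249 and 210. In replicate 1 these were 149, 151 and 96.7, and in replicate 2 they were 110, 104 and 106. The gene dnc, which encodes the cAMP phosphodiesterase known for its learning mutants, had 3 peaks 290 to 374 bp upstream of internal starts, with signals of 153, 297 and 120. Moe, the moesin gene that links actin to the membrane, had 101, 87.8 and 127 at 238 to 484 bp upstream. In CG1888 a peak of 528 stood 220 bp upstream of an internal start between weaker peaks of 67.8 and 63.3. In l(3)neo38 the 3 signals were 79.5, 73.8 and 80.6. CHES-1-like, a forkhead factor gene, had 94.0 at an internal start and a pair 223 bp apart at its outermost start, with 66.6 and 19.96.

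Cytosolic ribosomal protein genes carried a peak at 15 of the 38 genes with a one-directional position (39.5%; 24.0 to 56.6%), against 7.55% of all such genes. Both replicates' lists gave 14 of 38 (36.8%). These genes encode the proteins of the cytoplasmic ribosome. RpL24 had a signal of 256, with 112 in replicate 1 and 137 in replicate 2. RpL23A had 195, with 107 in replicate 1 and 90.4 in replicate 2. The signals of RpL30 and RpS4 were 179 and 146, and the other 11 lay between 58.7 and 140. RpS14b, the weakest, has a nearly identical neighbour copy, so its value is uncertain. A further 48 genes of the list had no one-directional position, and 31 of them carried a head-to-head peak. The share over all genes without such a position is not given here, so this count has no background beside it.

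The ribosomal peaks sat on the start. All 15 summits were within 100 bp of the TSS, with a median 12 bp upstream and the middle of the distribution between 29.5 bp upstream and 12 bp downstream, against 29.6% of all members within 100 bp. In the replicates' own lists 13 of 14 and 14 of 14 were that near. A TCT initiator stood at 9 of the 15 bound ribosomal starts (60%; 32.3 to 83.7%) and at 26 of all 56 one-directional ribosomal starts (46.4%; 33.0 to 60.3%). The 43 members with a TCT initiator at any gene had a median 130 bp upstream, against 124 bp for all members, and 34.9% of them were within 100 bp. In the replicates' lists TCT peaks lay closer: the median was 103 bp upstream in replicate 1, against 158 bp for all, and 17 bp in replicate 2, against 121 bp. Within 100 bp lay 40% of TCT peaks in replicate 1's list, against 19.1% of all, and 55.6% in replicate 2's, against 33.6%. The ribosomal peaks are among them. The 15 ribosomal peaks had a median GC of 45.8% within 100 bp, and 13 of them had the higher signal in replicate 2. Among all members at 0 to 99 bp downstream replicate 2 was higher in 59 of 100, and among those 1 to 100 bp upstream in 74 of 127. The peak of RpS27A overlapped none in replicate 1's list, and that of RpS14b none in either replicate's list. Whether the difference between libraries has a part in the ribosomal peaks was not tested.

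Translation factors were bound at 5 of 31 genes (16.1%; 5.45 to 33.7%). Besides eIF6 these included the elongation factor genes eEF1gamma with a signal of 232, eEF2 with 150 and eEF1alpha1 with 132. The summits of these 3 lay 6, 8 and 32 bp upstream of the start, as close as those of the ribosomal genes. They were the 3 of the 5 within 100 bp, and that of eIF6 lay 111 bp upstream. For eEF2 the signal was 60.1 in replicate 1 and 87.0 in replicate 2, and for eEF1alpha1 48.7 in replicate 1 and 78.8 in replicate 2. For eEF1gamma it was 135 in replicate 1 and 92.5 in replicate 2. Of the 5 genes, 3 were higher in replicate 2 and 2 in replicate 1. Aminoacyl-tRNA synthetase genes, which charge tRNAs, had 1 of 12 (AlaRS, 62.8), in neither replicate's list.

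Glycolysis genes were bound at 4 of 9 (44.4%; 13.7 to 78.8%), in 5 of 9 by replicate 1's list and 3 of 9 by replicate 2's. The 4 were Gapdh2, Hex-A (hexokinase) with a signal of 173, Ldh (lactate dehydrogenase) with 122 and Pgk (phosphoglycerate kinase) with 95.4. Their summits lay 125 to 280 bp upstream, unlike the ribosomal ones, and all 4 were higher in replicate 1. Chaperone genes had 4 of 12 (33.3%; 9.92 to 65.1%): Hsp27 with 352, Hsp26 with 136, Hsp22 with 105 and Hsp60A with 58.4. The first 3 are small heat shock genes of 1 cluster on 3L, so they are not independent of each other. Hsp27 had 181 in replicate 1 and 171 in replicate 2.

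Genes of embryonic regulation were bound in part. Signalling genes had 7 of 29 (24.1%; 10.3 to 43.5%), led by sgg, the GSK3 kinase of the Wnt pathway, with 249, spi, an EGF receptor ligand, with 109, rho, the protease that releases it, with 95.1, and Stat92E, the JAK/STAT transcription factor, with 86.6. In each replicate's list the count was 4 of 29. Axis patterning genes had 5 of 33 (15.2%; 5.11 to 31.9%), among them bcd with 141, fkh with 119, odd with 68.4 and cad with 64.2, and the replicates' lists gave 2 and 3. Insulator and architectural protein genes had 3 of 11, which were Trl (the GAGA factor gene) with 185, BEAF-32 with 73.9 and psq with 66.1, but each replicate's list held 1. Polycomb and Trithorax group genes had 3 of 15, which were ph-p with 286, Su(z)2 with 64.5 and ph-d with 48.4. ph-p and ph-d are neighbouring duplicates, so reads could have been split between them, and each replicate's list held 1 of the 3. Cytoskeleton genes had 3 of 13 (Moe, sqh with 125 and shot with 102) and cell cycle genes 2 of 19 (Dp with 142 and CycE with 74.2).

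Other lists had few or no members. Of 154 chemoreceptor genes that could have had a one-directional peak none did (an upper limit of 2.37%), nor did any of 46 respiratory chain and ATP synthase genes (7.71%), 26 proteasome genes (13.2%), 16 mitochondrial ribosomal protein genes (20.6%) or 5 splicing genes (52.2%). Other genes of these lists, without a one-directional position, could carry head-to-head peaks. Such peaks lay at 11 of 59 mitochondrial ribosomal, 9 of 43 respiratory chain, 5 of 22 splicing, 1 of 22 proteasome and 0 of 25 chemoreceptor genes. The share over all genes without a one-directional position is not given here, so these counts have no background beside them, and the 7.55% does not apply to them. Cuticle protein genes had 2 of 108 (1.85%; 0.225 to 6.53%), Cpr73D with 85.6, at a peak shared with a start of Ogdh, and Cpr65Av with 53.7. Cytochrome P450 genes had 3 of 76 (3.95%; 0.822 to 11.1%), with Cyp6u1 at 232, at a peak shared with Ufsp1, Cyp1 at 76.5 and Cyp4e2 at 56.3. Muscle genes had 1 of 17, sls (titin) with 135, neuronal genes 1 of 18, elav with 261, and secretory pathway genes 1 of 12, deltaCOP with 91.8. Intervals of most of these small lists include the 7.55% of all genes. Those of the chemoreceptor and cuticle lists lay below it, and those of the ribosomal, glycolysis, chaperone and signalling lists above it. These are intervals of the conservative set, and in each replicate's list 13.8% of signalling genes and 25% of chaperone genes were bound. The chaperone interval counts the small heat shock genes of 1 cluster as independent, which they are not. The lists were not matched to all genes by number of starts, and 22.4% of all genes with 3 or more TSS carried a peak.

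**Figure D4:**
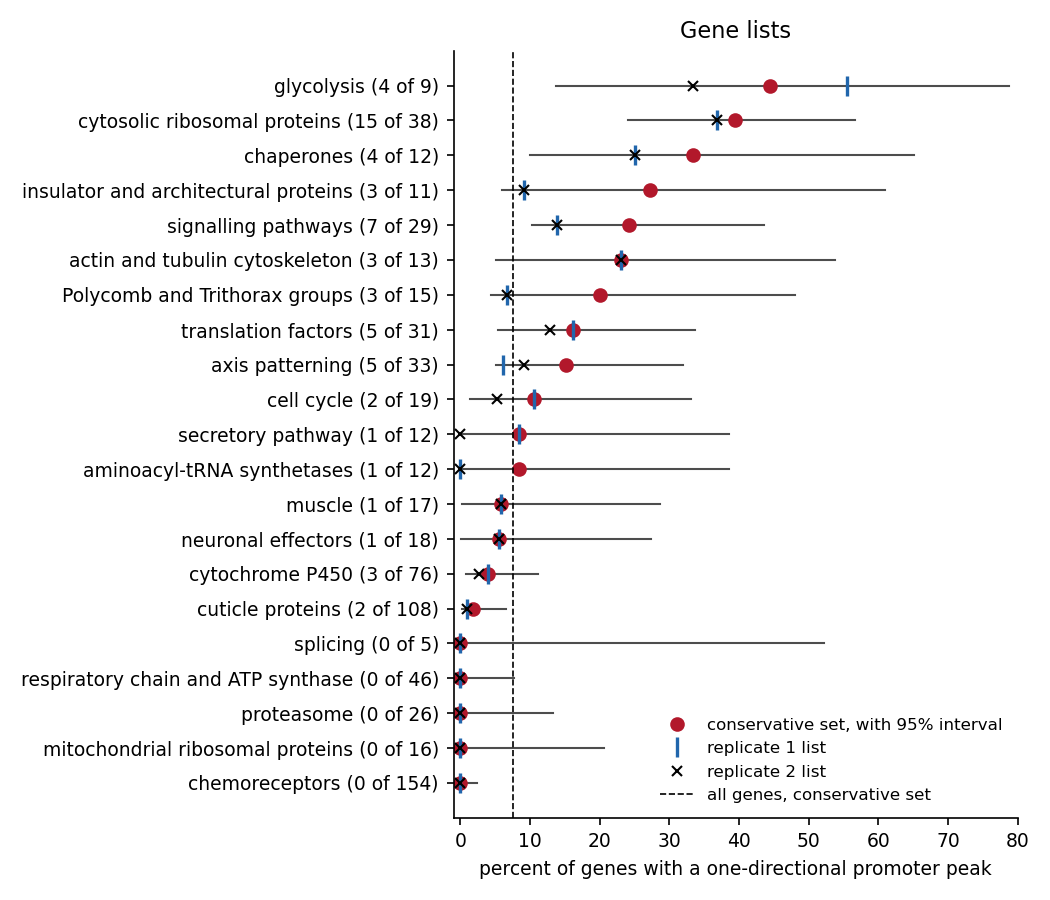
Percent of the genes of each list that carried a one-directional promoter peak, in the conservative set (red, with the exact 95% interval as a line) and in each replicate's own list (blue bar and cross), with bound and possible genes in brackets. The dashed line is the 7.55% of all genes. Glycolysis, cytosolic ribosomal protein and chaperone genes had the highest shares, and chemoreceptor genes had none of 154.

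Core elements at the bound starts differed in frequency from those of all one-directional promoters, with fewer TATA boxes and more initiators and DPEs. A TATA box (TATAAA from 40 to 15 bp upstream, sense strand) stood at 3.85% of the 753 bound starts (2.59 to 5.48%), against 7.87% of all 13094 one-directional starts. An initiator (TCAGT or TCATT within 10 bp, sense strand) stood at 28.8% (25.6 to 32.2%) against 20.8%. A DPE (AGACG or GGACG, or else the words AGTCG or GGTCG, from 20 to 40 bp downstream, sense strand) stood at 15.8% (13.3 to 18.6%) against 9.13%, and a TCT initiator at 5.58% (4.05 to 7.46%) against 3.71%. The replicates' own lists gave 3.17% in replicate 1 and 4.30% in replicate 2 for the TATA box, 28.1% and 29.9% for the initiator, and 12.9% and 15.3% for the DPE. Members with an initiator lay further out, with a median 168 bp upstream of the start, than the 428 members with none of these elements, with a median of 108 bp.

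Words of 7 bases were counted within 100 bp of the summits, and CACAGTG, which reads CACTGTG on the other strand, is followed here. On arms 2L, 2R and X it was in 9.78% of 460 members, against 2.93% of the one-directional promoters of those arms. It was second of all words by that difference, after ACAGTGG (10.4% against 3.18%), which overlaps it by 6 bases. On the other arms, 6.23% of 321 members had CACAGTG (3.85 to 9.46%), against 2.42% of promoters, and ACAGTGG was in 8.10% against 2.33%. The choice of CACAGTG did not rest on the count on 2L, 2R and X alone, and earlier results of these data were known. The other arms are therefore no independent check of it. Over all arms the share with CACAGTG was 8.32% of members (65 of 781; 6.48 to 10.5%) and 2.70% of all one-directional promoters, in windows of the same length. Head-to-head peaks had it in 4.89% (3.16 to 7.19%) and peaks away from promoters in 8.38% (7.12 to 9.78%). It was in 11.4% of the one-directional peaks of replicate 1's list and 11.5% of replicate 2's. The share was 2.05% in the weakest quartile of members (0.562 to 5.17%), 7.69% and 7.18% in the middle ones and 16.3% in the strongest (11.4 to 22.3%). The 65 members with the word had a median signal of 137, against 85.5 for the 716 without it. Of those with the word 64.6% were in both replicates' lists, against 41.5%, a share that is not independent of signal. The GC of the 65 had a median of 35.8%, against 38.3% for all members, and 45 of the 65 were higher in replicate 1. The part of GC or of the libraries in the share with the word was not tested.

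Copies of the word 25 to 149 bp from the summit mostly pointed at it. Counted in bins of 25 bp on both sides, it had 14 copies at 0 to 24 bp, was most frequent at 75 to 99 bp, with 27 copies, and was back at 14 at 125 to 149 bp. In the conservative set the excess at 75 to 99 bp was on the side of the gene, with 17 copies, against 9 at 0 to 24 bp on that side. On the upstream side no bin held more than 9. Replicate 1's list did not show this excess in that bin, with 13 copies at 75 to 99 bp on the gene side and 13 at 76 to 100 bp upstream. In replicate 2's list there were 16 and 10. Over 25 to 149 bp there were 59 copies on the gene side and 38 upstream in the conservative set. The numbers were 60 and 37 in replicate 1's list and 45 and 32 in replicate 2's. In the strongest quartile of members, both sides together, there were 3 copies at 0 to 24 bp and 18 at 75 to 99 bp. Of the 97 copies 25 to 149 bp from a summit, 75 had CACAGTG reading 5′ to 3′ toward the summit (77.3%; 67.7 to 85.2%), as in the windows of PAN3 and Rtnl1 shown above. On the upstream side 29 of 38 did so and on the side of the gene 46 of 59, so the orientation followed the summit on both sides. Farther out, at 150 to 299 bp, 29 of 51 copies read toward it (56.9%; 42.2 to 70.7%), and within 24 bp 6 of the 13 that were not centred on the summit did. In replicate 1's list 82 of 97 copies at 25 to 149 bp read toward the summit (84.5%) and in replicate 2's list 60 of 77 (77.9%). Peaks away from promoters had 173 of 230 (75.2%; 69.1 to 80.7%) and head-to-head peaks 21 of 36 (58.3%; 40.8 to 74.5%). In 13 members there were copies on both sides within 150 bp. The side counts were made after the word was seen in these data.

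**Figure D5:**
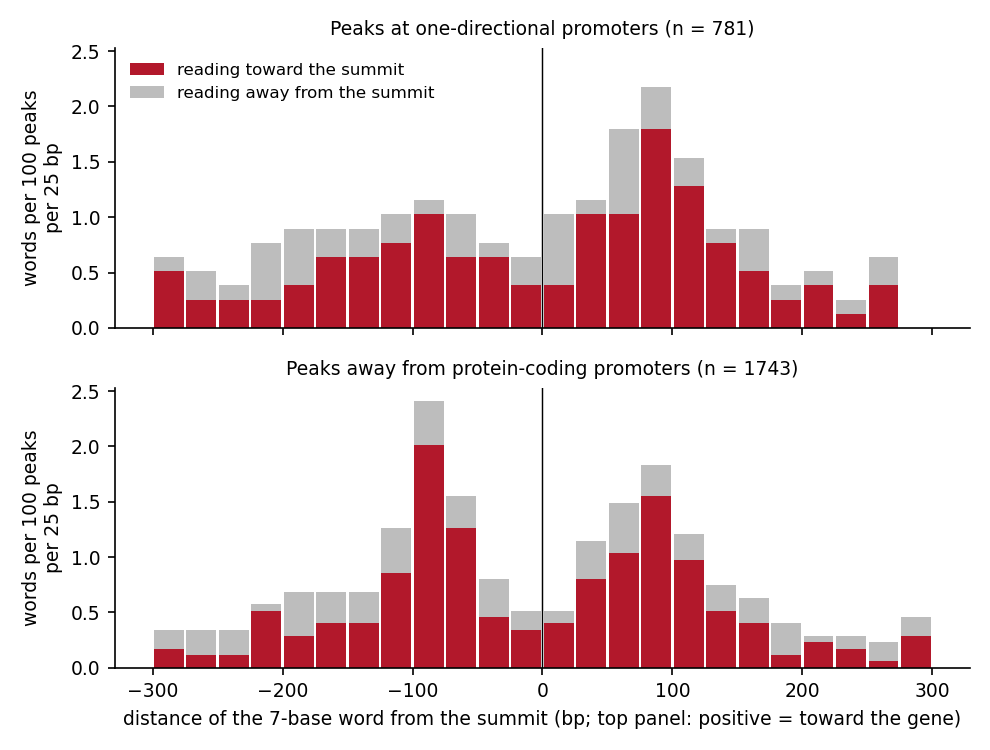
Copies of the 7-base word per 100 peaks in bins of 25 bp against distance from the summit, split by whether the word reads toward the summit (red) or away from it (grey), at the 781 one-directional promoter peaks (top, positive toward the gene) and the 1743 peaks away from protein-coding promoters (bottom, positive along the chromosome). Copies are most frequent at 75 to 99 bp on the gene side in the top panel and near that distance on both sides in the bottom one, and most of those at 25 to 149 bp read toward the summit, 75 of 97 in the top panel.

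Other motifs were searched in the same windows. The GAGA repeat (GAGAGA, both strands) was within 100 bp of 15.6% of members (13.1 to 18.4%), against 13.8% of all one-directional promoters. Within 50 bp it was in 5.63% of members against 8.54% of promoters, and within 150 bp in 26.9% against 17.2%, so it was scarcer at the summit and more frequent beside it. The order was not particular to this repeat. CACACA was in 7.94% of members against 9.43% of promoters within 50 bp, and in 29.7% against 22.8% within 150 bp. Within 100 bp, head-to-head peaks had GAGAGA in 4.28% and peaks away from promoters in 13.4%. The DRE core TATCGATA, a site of the promoters of growth genes, was in 2.30% of members (1.37 to 3.62%), 9.37% of head-to-head peaks and 3.19% of all one-directional promoters. For one-directional peaks it was 2.31% in replicate 1's list and 3.83% in replicate 2's, on either side of the promoters' share. The Motif 1 core GGTCACAC was in 3.07% (1.98 to 4.54%), against 1.34% of all one-directional promoters, with 2.12% in replicate 1's list and 2.55% in replicate 2's. Within 150 bp it was in 3.84% against 3.44%, a smaller difference. The ETS-type word CCGGAA was in 6.66% (5.01 to 8.64%), against 4.15%, with 4.82% in replicate 1's list and 8.09% in replicate 2's. The interval of the members' share included the share of all promoters for the E-box CAGCTG (10.9% against 10.3%), for CGATA (27.1% against 29.8%), for the Zelda word CAGGTA (3.97% against 4.62%), for the CTCF core AGGGGGC (1.66% against 1.17%), for CACACA (18.2% against 16.2%), for GCCATT (9.99% against 11.95%), for AGGACA (3.20% against 4.38%), for GCGCGC (4.87% against 3.51%) and for AAAAAA (37.3% against 36.4%). All were searched on both strands, the DRE core contains CGATA, and AAAAAA and CACACA can overlap copies of themselves.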

How the data were processed

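CG5953-eGFP chromatin from 2 libraries of whole embryos was analysed as deposited peak lists. Texts deposited with the samples give dm6 as the assembly and describe the lists as ranked and thresholded by the irreproducible discovery rate, for 1 library or for both. The authors' signal value per peak has no stated unit, and the deposited score rescales that rate to at most 1000. The name of the aligner or peak caller is not given in the sources used here. Depth is unknown. Control libraries were not analysed here.

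Summits were placed on the Ensembl annotation BDGP6 (release 115) and the Release 6 sequence (RefSeq) with Python 3.11.15, numpy 2.4.6, scipy 1.17.1 and matplotlib 3.10.9, by scripts tested on simulated summits. Peaks were matched between lists by an overlap of at least 1 bp. A gene could be bound if a position within 500 bp of 1 of its TSS lay outside the reach of head-to-head starts. The members, the 21 gene lists (1073 of 1086 names found) and the motifs were chosen with earlier results of these data known. Genes named are CG5953, those at the 25 strongest members, up to 4 per list by signal and those with 3 or more members. Others are named where their sequence is shown, or where their start shares a named peak. Sequences on 1 arm, or with over 30 annotated UTR bases, were not shown. Alternatives changed the windows, spacing, peak set, replicates and annotation.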

Additional observations from a re-analysis of the deposited data

How the results depend on the processing

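No paired analysis was possible because there was 1 group. Of 93 values under alternatives, 48 moved and 45 did not. The number of members counts as moved when it changed by over 1.5 times, the share in both lists when it left its interval, and other values when they shifted by more than the SD between the replicates' lists. That SD comes from 2 lists and was 0 for the ribosomal share, so small shifts count as moved; the cause was not tested where no construction gives it. The median stayed upstream and the ribosomal share stayed above that of all genes in every alternative run.

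Without replicate 1 and without replicate 2, in that order, there were 470 and 519 members, 28.3 and 26.3% of placed peaks, signal ratios over head-to-head peaks of 0.998 and 1.07 (0.970 as reported, so the order of the classes turned without replicate 2, and also with the stronger peaks below), upstream shares of 75.1 and 83.2%, medians of -121 and -158 bp, 4.84 and 5.09% of genes bound, ribosomal shares of 36.8% in both, CACAGTG in 11.5 and 11.4%, copies reading toward the summit in 77.9 and 84.5% and GAGAGA in 17.0 and 15.4% of members.

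With peaks at or above the median signal, members numbered 424 (28.1% of peaks), the signal ratio was 1.02, 83.0% were upstream with a median of -150.5 bp, 4.35% of genes and 36.8% of ribosomal genes were bound, 77.6% of members were in both lists, CACAGTG was in 11.8% and 85.3% of its copies read toward the summit. The optimal set gave 8.18% of genes, 36.8% of ribosomal genes, 39.7% in both lists and CACAGTG in 7.66%. Windows of 250 and 1000 bp gave 18.3 and 33.8% of peaks and 5.60 and 9.36% of genes, and the median was -94 bp at 250 bp. Spacings of 500 and 2000 bp gave 29.9 and 21.9% of peaks, 8.10 and 7.31% of genes and 46.4 and 41.4% of ribosomal genes. With outermost starts only, the values were 19.1% of peaks, a median of -97 bp, 6.28% of genes and 47.1% of ribosomal genes, and with partners of any biotype 36.1% of ribosomal genes. Windows of 50 and 150 bp gave CACAGTG in 3.33 and 12.2% and GAGAGA in 5.63 and 26.9%. Without the 21 members of signal below 20, CACAGTG was in 8.42%. The CACAGTG alternatives and the last one were chosen after seeing the data.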
